A study of Mus musculus with 2 samples.

Results

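The renin-angiotensin and endothelin systems were followed through 9 genes in the left ventricle of heart-specific *Bmal1* knockout (*H-Bmal1*-/-) mice. The genes were *Agt*, *Ace*, *Agtr1a* and *Agtr2* for the renin-angiotensin system and *Edn1*, *Edn3*, *Ednra*, *Ednrb* and *Ece1* for the endothelin system, and their probes were found by matching the accession of each noncontrol probe to these symbols. They are 9 of 20282 genes that had both a symbol and a probe on the array, and they were read by 10 probes at 19 spots. Of the 9, 7 gave a signal well above background, each on both arrays, while *Agtr2* and *Edn3* did so on neither.

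The experiment held 2 single-color (Cy3) Agilent SurePrint G3 Mouse arrays, 1 for each genotype. Each was hybridized with a pool of left ventricular RNA from 6 male mice aged 12 weeks, collected at ZT 2, where ZT 0 is lights on. The knockout animals carried a floxed *Bmal1* gene and a Cre transgene driven by the αMHC (*Myh6*) promoter, which is active in cardiomyocytes. Whether *Bmal1* was intact in the other cells of the ventricle was not measured on these arrays. The control animals were littermates that also carried the floxed gene but no Cre, although the sample labels call them wildtype. No array measured Cre alone. With 1 pool per genotype there was no replicate and no test, so every difference below describes a pair of pools. The paper cautions that a difference seen at ZT 2 alone may come from a shifted daily rhythm of a gene. For the genes below this was not tested. Genes were counted by a fixed size of at least 1.5-fold.

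Angiotensinogen, the product of *Agt*, is cut by renin to angiotensin I, and angiotensin-converting enzyme (*Ace*) turns that into angiotensin II, which raises blood pressure and promotes growth and fibrosis of the heart mainly through the AT1 receptor (*Agtr1a* in most mouse tissues). Endothelin-1 (*Edn1*) is released as a longer precursor that endothelin-converting enzyme (*Ece1*) cuts to the active peptide, a strong constrictor of vessels. It acts on the ETA receptor (*Ednra*) of muscle cells and on the ETB receptor (*Ednrb*), which in endothelium clears the peptide and releases nitric oxide. Both systems signal in large part through receptors coupled to Gq and are targets of drugs used in cardiovascular disease.

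In the *H-Bmal1*-/- pool, the precursor gene *Agt* and the converting enzyme gene *Ace* were higher, by 1.60-fold and 1.76-fold. The genes for the receptors through which both peptides mainly act, *Agtr1a* and *Ednra*, were lower, by 1.66-fold and 1.70-fold. *Edn1* and *Ece1* were within 1.09-fold of the control pool, and the probes of *Ednrb* pointed in opposite directions. Thus 2 of 7 measured members were at least 1.5-fold higher, against 6.15% of all 13846 measured genes, and 2 of 7 were at least 1.5-fold lower, against 5.85% of all genes. The median log2 ratio was 0.09 over the members and -0.01 over all measured genes.

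The windows before the transcription starts of *Agt*, *Ace* and *Ednra* are shown, 3 of the 4 members at least 1.5-fold apart (the other is *Agtr1a*), because the deleted gene encodes a transcription factor. BMAL1 binds DNA with CLOCK at E-boxes, and REV-ERB and ROR factors bind elements with a core known as RORE. The sequences are RefSeq reference windows of mouse build GRCm38.p6, 250 bases up to the start and 5′ to 3′ on the strand of the gene. They lay at chr8:124569707-124569956 (minus strand) for *Agt*, at chr11:105967698-105967947 (plus strand) for *Ace* and at chr8:77724453-77724702 (minus strand) for *Ednra*. All letters are lower case because none of the motifs searched was found in them.
Agt: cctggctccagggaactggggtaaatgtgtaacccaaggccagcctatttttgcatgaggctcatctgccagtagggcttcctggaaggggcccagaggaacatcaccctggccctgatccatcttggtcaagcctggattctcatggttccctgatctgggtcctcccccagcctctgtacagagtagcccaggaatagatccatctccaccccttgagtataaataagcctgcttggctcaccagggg
Ace, window 1: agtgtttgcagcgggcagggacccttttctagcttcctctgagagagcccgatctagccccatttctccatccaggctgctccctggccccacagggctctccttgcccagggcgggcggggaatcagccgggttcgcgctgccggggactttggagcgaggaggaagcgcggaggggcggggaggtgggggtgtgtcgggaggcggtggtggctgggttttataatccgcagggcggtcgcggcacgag
Ednra: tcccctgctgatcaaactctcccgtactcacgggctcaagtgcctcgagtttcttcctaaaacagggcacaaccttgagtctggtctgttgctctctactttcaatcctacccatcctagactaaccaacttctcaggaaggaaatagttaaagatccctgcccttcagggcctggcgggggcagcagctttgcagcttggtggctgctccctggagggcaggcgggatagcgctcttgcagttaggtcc

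Searches for 3 motifs were made on both strands of 12 windows from 8 members. The E-box CACGTG, which is its own reverse complement, was found in 1 of 12 windows, and 6.02% of all 32851 mouse windows hold it. The E-box-like CACGTT, or AACGTG on the other strand, was in 0 of 12 windows and in 3.85% of all windows. The RORE core AGGTCA, or TGACCT on the other strand, was in 1 of 12 windows and in 14.02% of all windows. The E-box match was in a window of *Ece1* that begins 250 bases before one of its starts (chr4:137913308-137913557, plus strand), with the motif starting 90 bases before that start. The RORE core match was in the second window of *Ace* (chr11:105974939-105975188, plus strand), starting 50 bases before the start. That start lies downstream of the first *Ace* window, which held no match. Which *Ace* start is used in the ventricle was not measured. The *Ece1* and *Ace* windows that hold a match are shown with the matches in capitals. A match is a stretch of letters and not a binding site, and the arrays measured no binding.
Ece1, window 3: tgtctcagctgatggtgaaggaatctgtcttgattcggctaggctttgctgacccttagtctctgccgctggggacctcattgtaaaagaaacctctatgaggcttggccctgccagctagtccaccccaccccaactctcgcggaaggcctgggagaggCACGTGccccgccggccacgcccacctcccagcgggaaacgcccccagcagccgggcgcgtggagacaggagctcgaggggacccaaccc
Ace, window 2: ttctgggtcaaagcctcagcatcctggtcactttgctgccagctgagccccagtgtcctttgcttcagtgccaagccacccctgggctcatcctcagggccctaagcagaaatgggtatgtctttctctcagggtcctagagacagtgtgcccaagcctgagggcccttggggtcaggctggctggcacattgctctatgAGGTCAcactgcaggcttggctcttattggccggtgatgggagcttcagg

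As a check of the labels, the 1 probe for *Bmal1* (now *Arntl*) was at a log2 ratio of -0.80, but whether it lies in the deleted stretch is not stated in the sources used here. *Nr1d1*, a direct target of BMAL1 that encodes REV-ERBα, had a log2 ratio of -2.09. Of 59305 noncontrol spots, the scanner called 49.4% well above background for the control pool and 50.03% for the knockout pool. The 75th percentile of the processed signal, to which each array was set, was 171 and 190, and without this scaling every log2 ratio would be 0.15 higher. All 10 cardiomyocyte markers were well above background on both arrays.

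*Agt*, which encodes the precursor of all angiotensin peptides and is made mostly in the liver, gave a signal of 44.0 ± 5.11 in the control pool and 78.4 ± 8.24 in the *H-Bmal1*-/- pool. The error is that of the scanner's error model for a single spot, and it does not include the spread between animals. The knockout signal was the higher one and the intervals of 1 error did not overlap. The log2 ratio after scaling was 0.68 ± 0.23 (error propagated from the spots), 3.01 times its own error. Of all measured genes, 4.70% had a higher ratio. *Agt* lay in the dimmest quartile of the measured genes, where ratios spread widely and 25.6% of genes were at least 1.5-fold apart in either direction. In that quartile 9.59% of genes had a higher ratio than *Agt*. A normexp background correction, which draws the ratios of dim probes toward 0, gave 0.34, under 1.5-fold. The study lists *Agt* among profibrotic genes that it chose on these samples, so its direction here is not independent evidence. Of 4 liver markers, *Alb* and *Apoa1* were not well above background on either array. *Serpina1a* had signals of 46.9 and 50.6, and *Ttr*, with signals of 7.79 and 17.4, was well above background in the knockout pool alone and at least 1.42-fold higher (log2 ratio 0.07 after normexp). The part of liver-type RNA in the value of *Agt* was not tested.

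*Ace*, whose product makes angiotensin II and degrades bradykinin and is found mainly on endothelium, had a signal of 209 ± 21.1 in the control pool and 408 ± 40.9 in the *H-Bmal1*-/- pool. Its log2 ratio was 0.81 ± 0.21, at 3.97 times the error the farthest of the members from 0 in these terms. Its ratio was above that of 96.5% of all measured genes, and among genes of similar brightness 2.08% had a higher ratio. The value ranged from 0.69 to 0.97 over 10 alternative ways of processing and stayed above 1.5-fold in each. Of 10 endothelial markers, 2 were higher and 8 lower, and the median was -0.07, which turned to 0.09 without scaling.

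**Figure D1:**
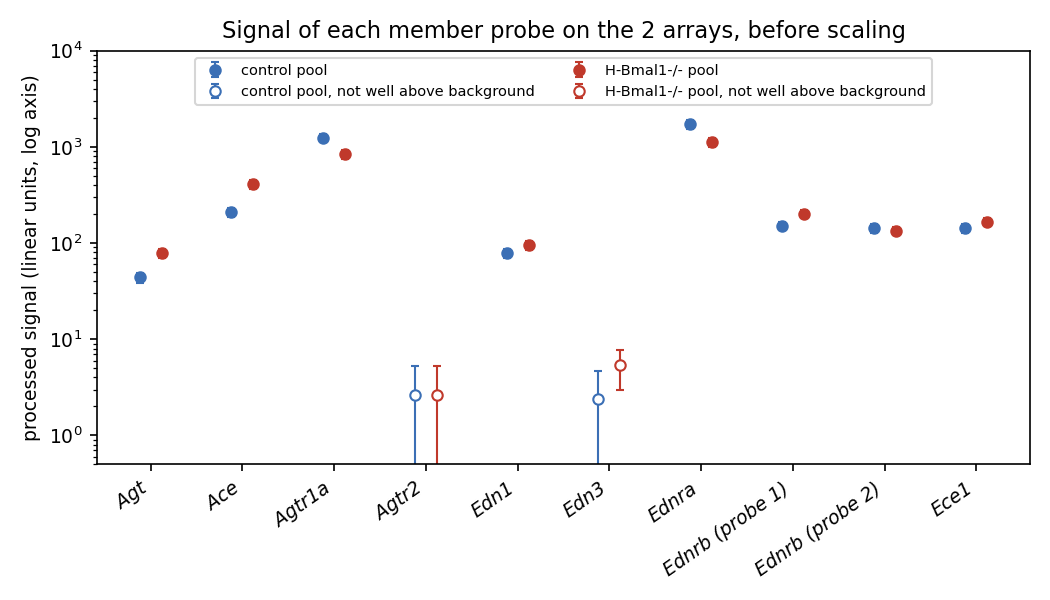
Processed signal of each member probe before scaling (vertical axis, log scale) in the control pool (blue) and the *H-Bmal1*-/- pool (red), with bars for 1 error of the scanner's error model. Open points were not well above background, and their lower bars run off the axis where the error is about as large as the signal. *Agt* and *Ace* are higher in red, *Agtr1a* and *Ednra* higher in blue. Signals of different probes cannot be compared with each other.

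*Agtr1a*, the gene of the main AT1 receptor of the mouse, was lower in the *H-Bmal1*-/- pool. Its signal was 1251 ± 125 with control RNA and 835 ± 83.5 with knockout RNA, and the log2 ratio was -0.73 ± 0.20. Only 3.84% of all measured genes, and 1.39% of those in the same, brightest quartile, had a lower ratio. The ratio was -0.63 after normexp, and without scaling the log2 ratio was -0.58, just inside 1.5-fold. *Agtr1b*, the second AT1 gene of rodents, was not well above background on either array, with signals of 2.28 and 2.26. *Agtr2*, which encodes the AT2 receptor known chiefly from fetal tissue, had signals of 2.63 ± 2.64 and 2.64 ± 2.64. Its raw spot intensity of 23 with control RNA and 19 with knockout RNA did not exceed the local background of 24 and 22, and no ratio is given.

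*Ednra*, which encodes the ETA receptor, was also lower in the *H-Bmal1*-/- pool. Its signal was 1715 ± 171 in the control pool and 1119 ± 112 in the *H-Bmal1*-/- pool, the log2 ratio was -0.77 ± 0.20, and 3.55% of all genes and 1.21% of genes in the brightest quartile had a lower ratio. It stayed at least 1.5-fold lower under all 10 alternatives, between -0.79 and -0.62. The ETB receptor gene *Ednrb* was read by 2 probes that went in opposite directions. Probe A_52_P577662 had signals of 151 ± 15.4 and 203 ± 20.5, a log2 ratio of 0.27 ± 0.21, and probe A_55_P2089710 had signals of 143 ± 14.6 and 134 ± 13.7, a log2 ratio of -0.25 ± 0.21. Their mean was 0.01, and no direction can be given for *Ednrb*.

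**Figure D2:**
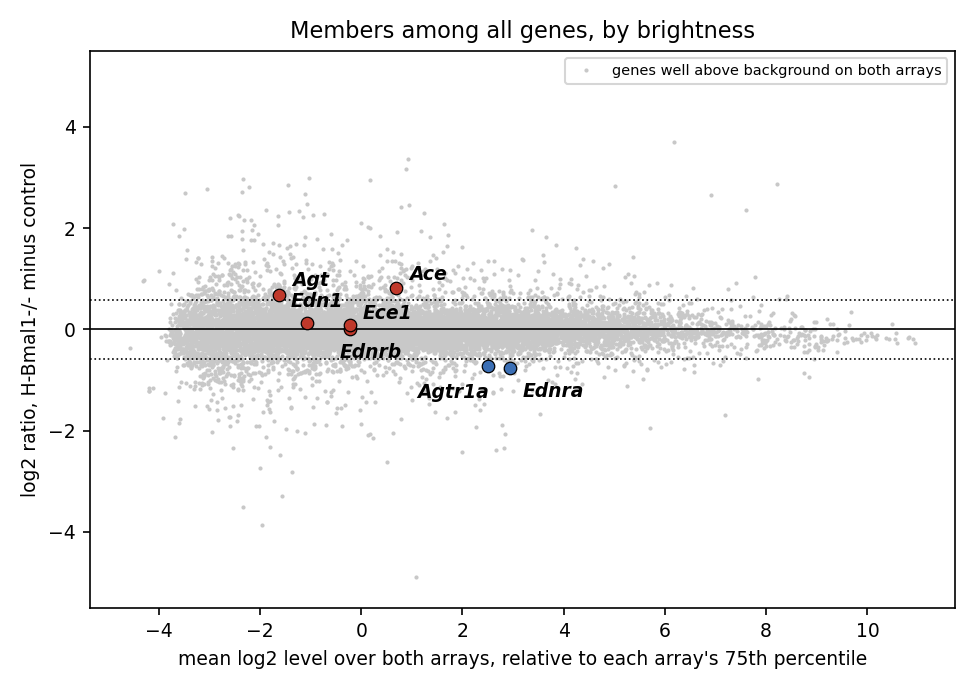
Log2 ratio of each gene, *H-Bmal1*-/- minus control (vertical axis), against its mean log2 level over both arrays relative to the 75th percentile (horizontal axis). Gray points are genes well above background on both arrays, red and blue points are the 7 measured members, higher and lower, and dotted lines mark 1.5-fold. *Agtr1a* and *Ednra* lie below the lower dotted line at the bright side, where the cloud is narrow, and *Agt* lies at the dim side, where it is wide.

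*Edn1*, the endothelin-1 gene, was read by a probe printed at 10 spots on each array, whereas every other member probe had 1 spot. The signals ranged from 71.1 to 82.9 with a median of 78.3 in the control pool and from 81.5 to 105 with a median of 95.4 in the *H-Bmal1*-/- pool. These unscaled ranges overlapped slightly. After scaling the overlap was wider, with log2 levels from -1.27 to -1.05 in the control pool and from -1.22 to -0.85 in the knockout pool. Compared position by position after scaling, 9 of 10 spots were higher in the knockout pool. The log2 ratio was 0.12 with an SD of 0.11 between spots, which is a 1.09-fold difference, and single spots lay between -0.10 and 0.28. These spots share 1 RNA pool per array and hold no spread between animals. *Ece1*, whose product releases the active endothelins, had signals of 142 ± 14.5 and 167 ± 17.0 and a log2 ratio of 0.09 ± 0.21, smaller than its error. *Edn3*, which encodes the endothelin that prefers the ETB receptor, had signals of 2.38 ± 2.34 and 5.35 ± 2.36 and was not well above background on either array. Its raw spot intensities of 26 and 32 stood beside local backgrounds of 25 and 28.

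**Figure D3:**
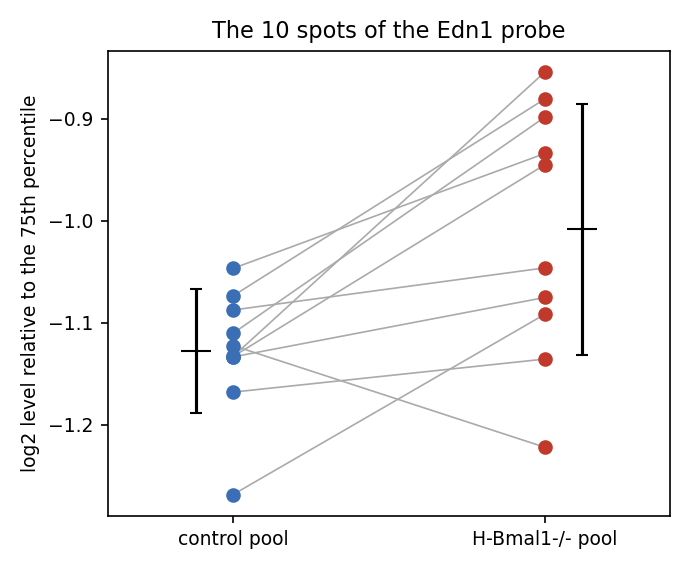
Log2 level of each of the 10 spots of the *Edn1* probe after scaling (vertical axis) in the control pool (blue) and the *H-Bmal1*-/- pool (red). Gray lines join spots at the same array position, black bars are the mean and the SD between spots. Of the 10 lines 9 rise, and the spots of the pools overlap.

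Most other genes of the renin-angiotensin system were within 1.5-fold of the control pool. Of 22 genes in a list of renins, other angiotensin-cleaving enzymes and other receptors, 19 were measured. Of them 8 were higher and 11 lower, and the median was -0.08 on the log2 scale (0.07 without scaling, with 12 higher). None was at least 1.5-fold higher and 2 were at least 1.5-fold lower. *Ren1*, which encodes renin, had a signal of 25.04 with the control RNA and 13.5 with the knockout RNA, a log2 ratio of -1.04 that shrank to -0.29 after normexp. The probe assigned to *Ren2*, a near-identical copy of *Ren1*, had signals of 18.1 and 16.05 (log2 ratio -0.33). Which copy each probe reads is not known, and whether these mice carry *Ren2* was not tested. *Mme*, which encodes neprilysin, a peptidase that degrades angiotensins, endothelins and natriuretic peptides, had signals of 34.2 and 9.58, was well above background in the control pool alone and was at least 3.43-fold lower. Its log2 ratio became -0.51 after normexp. *Mas1*, which encodes a receptor for angiotensin 1-7, had a log2 ratio of -0.11, and *Cma1*, a mast cell chymase that can form angiotensin II, -0.08. Without scaling *Mas1* and *Cma1* were at 0.05 and 0.07. Chosen after the values were seen, *Nln*, a peptidase that can cleave angiotensin I and the highest gene of the list, was at 0.56 (at least 1.5-fold higher in 4 of 10 alternatives, and 0.23 after normexp), *Agtrap*, whose product promotes internalization of the AT1 receptor, was at 0.38, *Atp6ap2*, the prorenin receptor, at 0.20, and *Mcpt4*, another mast cell chymase, at -0.36.

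Of 8 other genes of endothelin processing, 5 were measured. Among them was *Mme*, which both lists hold and which was the 1 gene at least 1.5-fold apart. *Ece2*, the second converting enzyme, had signals of 16.5 and 19.8 and a log2 ratio of 0.12. *Edn2* had signals of 5.499 and 12.0 and was well above background in the knockout pool alone, too close to the lowest detectable signal for a fold to be given.

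**Figure D4:**
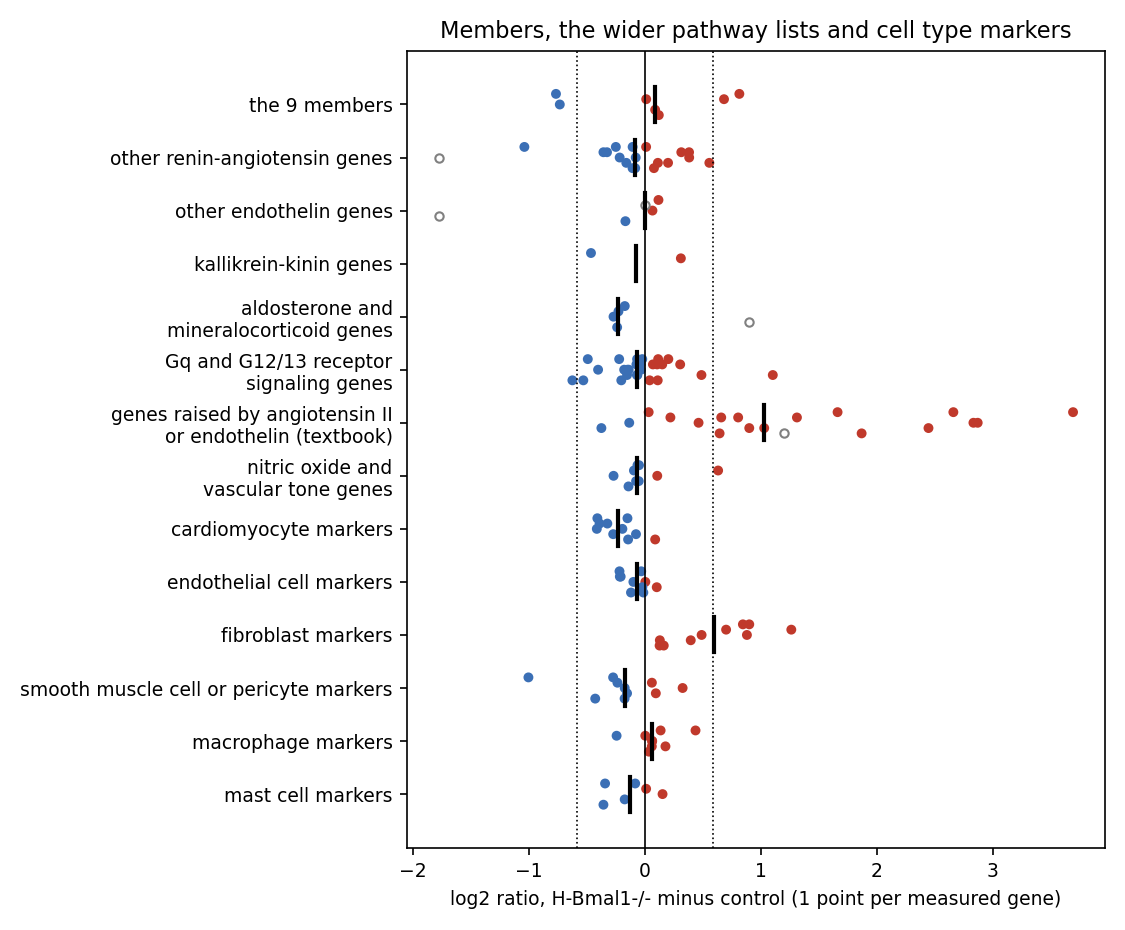
Log2 ratios, *H-Bmal1*-/- minus control (horizontal axis), with 1 point per measured gene, for the members, the wider lists and lists of cell type markers. Red points are higher, blue points lower, open points were well above background on 1 array only and are placed at their bound where one could be set, each black bar is the median of its list and 1.5-fold is dotted. The renin-angiotensin and receptor signaling lists center near 0, whereas the genes raised by angiotensin II or endothelin have a median of 1.03 and the fibroblast markers one of 0.59.

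Among neighboring systems, most kallikrein-kinin genes were not detected, with 2 of 10 measured and the kinin receptors *Bdkrb1* and *Bdkrb2* not well above background on either array. The aldosterone synthase gene *Cyp11b2* and *Hsd11b2*, whose product keeps glucocorticoids off the mineralocorticoid receptor, were likewise not well above background. *Nr3c2*, which encodes that receptor, had signals of 19.6 and 18.0 and a log2 ratio of -0.27. Of 9 genes in that list, 5 were measured, 1 higher and 4 lower, and the higher one was *Scnn1a*, a sodium channel subunit, with signals of 12.6 and 26.2 and well above background in the knockout pool alone (log2 ratio 0.90, which sets no minimum, and 0.15 after normexp). Of 9 measured genes of nitric oxide and vascular tone, 2 were higher and 7 lower, with a median of -0.06 that turned to 0.09 without scaling. *Ptgis*, the prostacyclin synthase gene, was at 0.63, the 1 gene of that list at least 1.5-fold apart.

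Downstream of the receptors, all 27 genes of Gq and G12/13 signaling were measured. Of these, 10 were higher and 17 lower, the median was -0.07 on the log2 scale, and without scaling 19 were higher. *Grk5*, a kinase that desensitizes G protein-coupled receptors, was the 1 gene at least 1.5-fold higher, with signals of 367 and 875 and a log2 ratio of 1.103 that was at least 1.01 under each alternative. *Gna12*, which encodes the α subunit of G12, was the 1 gene at least 1.5-fold lower, with signals of 116 and 83.6 and a log2 ratio of -0.63. It was at least 1.5-fold lower in 6 of 10 alternatives, with -0.47 without scaling and -0.44 after normexp. Genes that textbook accounts name as raised by angiotensin II or endothelin differed more. Their median was 1.03. Of 19 measured, 17 were higher, against 48.3% of all measured genes, and 14 were at least 1.5-fold higher, against 6.15%. Among the listed genes well above background on both arrays the highest ratios were those of *Myh7* (log2 ratio 3.69), *Nppa* (2.87) and *Ccn2* (2.83). These 3 encode the fetal myosin heavy chain, atrial natriuretic peptide and connective tissue growth factor. *Il6*, which encodes the cytokine interleukin-6, had signals of 2.97 and 28.2, was well above background in the knockout pool alone and was at least 2.30-fold higher, so its place among them is not known (log2 ratio 0.38 after normexp). The genes of this list respond to many other stimuli, several are among those the study chose on these samples, and *Col1a1* is also in the fibroblast list. The list was chosen with earlier results of these data known.

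Markers of several cell types also differed between the pools, and in bulk tissue fewer cells of a type and less RNA per cell cannot be told apart. All 10 fibroblast markers were higher in the *H-Bmal1*-/- pool, 5 of them by at least 1.5-fold, led by *Mfap5* (log2 ratio 1.26), *Col1a1* (0.90) and *Pcolce* (0.88). Their summed level, relative to the 75th percentile of each array, was 343 with control RNA and 535 with knockout RNA. Of 10 smooth muscle and pericyte markers, 7 were lower, with a median of -0.18 that was -0.02 without scaling. The 10 together had a summed level of 109 and 95.2. *Abcc9*, a potassium channel subunit of pericytes and cardiomyocytes, was at -1.01, the 1 marker of that list at least 1.5-fold lower. Of 10 cardiomyocyte markers, 9 were lower, with a median of -0.23 that was -0.08 with 6 lower without scaling and -0.11 with 6 lower under quantile normalization. The 10 endothelial markers had summed levels of 208 and 202, the 9 measured macrophage markers 42.5 and 44.0, and the 6 measured mast cell markers 3.23 and 2.92. Such sums lean on the brightest probes of a list. The median log2 ratio was 0.59 over the fibroblast, -0.07 over the endothelial, 0.06 over the macrophage and -0.13 over the mast cell markers. Without scaling these medians were 0.75, 0.09, 0.21 and 0.02. All 4 epicardial markers were lower, *Upk3b* (-0.72) and *Msln* (-0.60) by at least 1.5-fold, but neither was so without scaling or after normexp and 1 was so under E1A scaling or cyclic loess. The part of these shifts in the values of *Agt*, *Ace*, *Agtr1a* and *Ednra* was not tested.

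**Figure D5:**
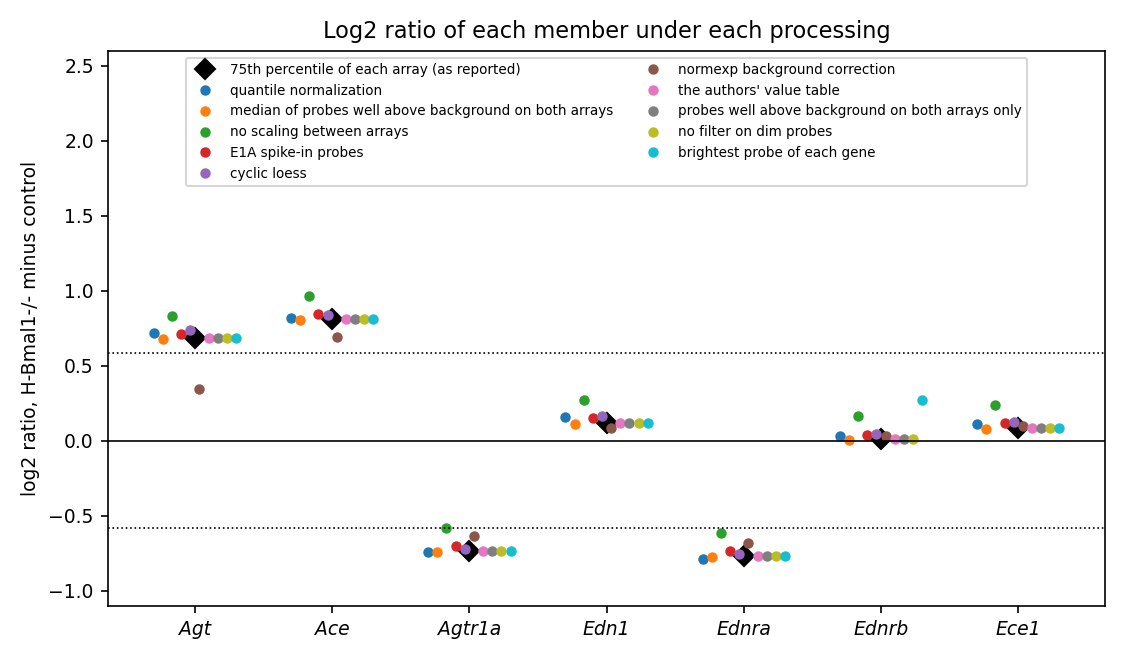
Log2 ratio of each measured member, *H-Bmal1*-/- minus control (vertical axis), as reported (black) and under 10 alternative ways of processing (colors), with dotted lines at 1.5-fold. *Ednrb*, whose probes disagree, lies near 0 or above it, the other members stay on their side of 0, *Agt* falls inside 1.5-fold after the normexp correction and *Agtr1a* lies at the line without scaling.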

How the data were processed

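Left ventricular RNA of control and *H-Bmal1*-/- mice was hybridized to 1 array per genotype, with 6 animals pooled on each. The authors deposited spot intensities as the processed signal of Agilent Feature Extraction, which subtracts background and corrects spatial trends on a linear scale without scaling between arrays. The submitters' processing notes give version 10.5.1.1 and the scanner output 10.10.1.1, and the arrays shared 1 slide and 1 scan. The deposited value table held the same intensities times 1 factor per array (log2 2.45 and 2.31, column medians 67.2 and 64.0), so its scale is linear and not centered by gene, the rule behind the factor is unknown, and it served as an alternative.

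Control spots and 269 spots with an outlier flag were left out. The log2 processed signal was set relative to its array's 75th percentile (all noncontrol spots), with the mean taken over spots of a probe. Symbols came from RefSeq through accessions for 26759 of 55676 probes. Probes detected well above background on either array were averaged to give a gene's value. A gene well above background on 1 array alone was set against the higher of its own value and the lowest detected signal of the dim array, and is given as "at least" a fold where the latter was used. Ratios are knockout minus control. Of 13846 measured genes, 13050 were well above background on both arrays, and no noncontrol spot was saturated. For 250 probes printed at least 8 times and well above background on both arrays, the median SD of the log2 ratio between spots was 0.07. The number of arrays limits the precision. With 2 arrays no likeness of pattern across samples can be computed, so no gene is named for it.

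The members and gene lists were chosen with earlier results of these data known. The text names every member, *Ren1*, *Ren2*, *Agtr1b*, *Mas1*, *Cma1*, *Edn2*, *Ece2*, *Nr3c2*, *Hsd11b2*, *Arntl* and *Nr1d1* whatever their values, and from each list up to 3 highest and 3 lowest genes at least 1.5-fold apart. Some genes that this rule names are not reported here. As alternatives, the arrays were quantile normalized, set to the median of the probes detected on both, left unscaled, scaled to 7 E1A spike-in probes or normalized by cyclic loess. Others were normexp with an offset of 50 on the median signal and median local background (the mean signal was not in the files used), the deposited value table, other filters on dim probes and the brightest probe. R 4.3.3 with limma 3.58.1 and Python 3.11.15 (matplotlib 3.10.9, pandas 2.3.3, numpy 2.4.6) were used, and the steps were tested on simulated data.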

Additional observations from a re-analysis of the deposited data

How the results depend on the processing

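Of the 7 measured members, *Agt*, *Ace*, *Edn1* and *Ece1* stayed higher and *Agtr1a* and *Ednra* lower under each of the 10 alternatives, while the probes of *Ednrb* disagree and give it no direction, and without a filter on dim probes *Edn3* and *Agtr2* entered as well. Of 70 member gene values, 58 moved by no more than 0.07, the spot SD of the log2 ratio, 12 moved by more and none that was at least 1.5-fold reversed. Members at least 1.5-fold higher numbered 2 as reported, 1 after normexp, where *Agt* dropped out, 3 without the filter, and 0 at a threshold of 2-fold. Members at least 1.5-fold lower numbered 2, 1 without scaling, where *Agtr1a* dropped out, and 0 at 2-fold. Among other renin-angiotensin genes, 0 were at least 1.5-fold higher as reported and 1 under quantile normalization, no scaling, E1A scaling or cyclic loess. In that list 2 were at least 1.5-fold lower as reported, 0 after normexp and 1 when both arrays had to be well above background. Among other endothelin genes, 1 was at least 1.5-fold lower as reported, 0 after normexp or with both arrays well above background, and 2 without the filter, where 1 was higher. Over all genes, 852 were higher and 810 lower by at least 1.5-fold as reported, 1337 and 530 without scaling, 369 and 248 after normexp, and 1622 and 1663 without the filter, and the median of all genes moved by 0.15 without scaling. No paired analysis was possible because each genotype has 1 array, so the shared replicate number marks no second pair. Signals near background limit *Agt*, *Ren1*, *Mme*, *Edn2*, *Scnn1a* and *Il6*, whose ratios shrank after normexp.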
